A study of Rattus norvegicus with 6 samples.

Results

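The genes described here encode splicing factors and heterogeneous nuclear ribonucleoproteins (hnRNPs), measured in rat mammospheres grown after exposure to human chorionic gonadotropin (hCG) had ended. They were chosen by name: each has at least 1 probe set (a group of array probes for 1 transcript) that the platform annotation assigns to 1 gene, whose symbol begins with Srsf, Sfrs, Hnrnp, Hnrp, Snrp, Sf3a, Sf3b or Prpf, or is U2af1 or U2af2. This gave 60 genes with 98 probe sets, of 14217 genes named on the array. In each, the probe set with the highest mean over the 6 arrays stood for the gene. A filter that left out the dimmest 40% of probe sets (mean log2 value below 2.67) kept 57 of the 60, and 10424 genes in all. The 3 below it were Srsf7 (2.52 to 2.67 over the arrays), the pseudogene Srsf7-ps4 (1.79 to 2.08) and Snrpn (1.59 to 1.88).

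Female Sprague Dawley rats received recombinant hCG by intraperitoneal injection (100 IU per day) or the vehicle, phosphate buffered saline, for 21 days from an age of 55 days. Mammary glands 4 and 5 were taken 21 days after the final injection. Cells enriched for epithelium were grown without attachment in medium with EGF and basic FGF, and after 7 days the floating spheres, both groups alike, were collected for RNA. Each group has 3 arrays, which carry the numbers 5, 6 and 7 and are listed in that order wherever 3 values are given, and no label says that each is a separate animal. The comparison asked whether RNA levels of these genes in the spheres depended on the earlier hormone treatment.

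Splicing removes introns from new transcripts. The spliceosome is built from small nuclear RNAs with a ring of Sm proteins and particle-specific proteins, many of them named Snrp. U2AF finds the end of the intron, SF3A and SF3B hold the U2 particle on the branch point, and Prpf proteins act in the tri-snRNP and in the activation of the complex. SR proteins mostly favour the use of an exon, while many hnRNPs, which coat nascent RNA, oppose it, so that their balance sets many alternative splicing choices. Several SR proteins and hnRNPs limit their own level by splicing their transcripts into forms that are degraded.

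Most of these genes had slightly higher values in hCG spheres, and none passed the test. Of 57 genes, 50 lay above the control mean, with a median log2 change of 0.15 (1.11-fold), where the median over all 10424 tested genes was 0.03 and 55.8% of them lay above 0. With limma (p-values adjusted over all tested genes by the Benjamini-Hochberg method), 0 of 57 were called (smallest adjusted p = 0.0742), against 190 of all genes (1.82%), 105 higher (1.01%) and 85 lower (0.815%). The count over all genes turned on single arrays: it was 350 higher and 236 lower without Control 7, 184 and 153 without hCG 6, and 0 when any other array was left out. At an unadjusted p under 0.05 there were 19 of the 57, all of them higher, beside 24.1% of all genes (14.4% of all genes were higher and 9.64% lower). With limma's array weights, which gave hCG 7 a weight of 7.25 and Control 7 one of 0.23, 17 of the 57 were called higher, beside 15.9% of all genes, and with a variance trend 1 was, beside 1.65% of all genes. In 26 genes the lowest hCG value exceeded the highest control value, and in 1 the reverse held, where 19.3% and 12.3% of all tested genes did so. The gaps were small: the median distance between the groups in those 26 genes was 0.10 on the log2 scale, and the largest 0.24. Among the 1576 tested genes with a mean log2 value of at least 8, a level chosen after the values were seen, the median change was 0.04 and 24.7% did not overlap with hCG higher, beside 0.20 and 19 of 31 for the genes described here at that level.

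**Figure D1:**
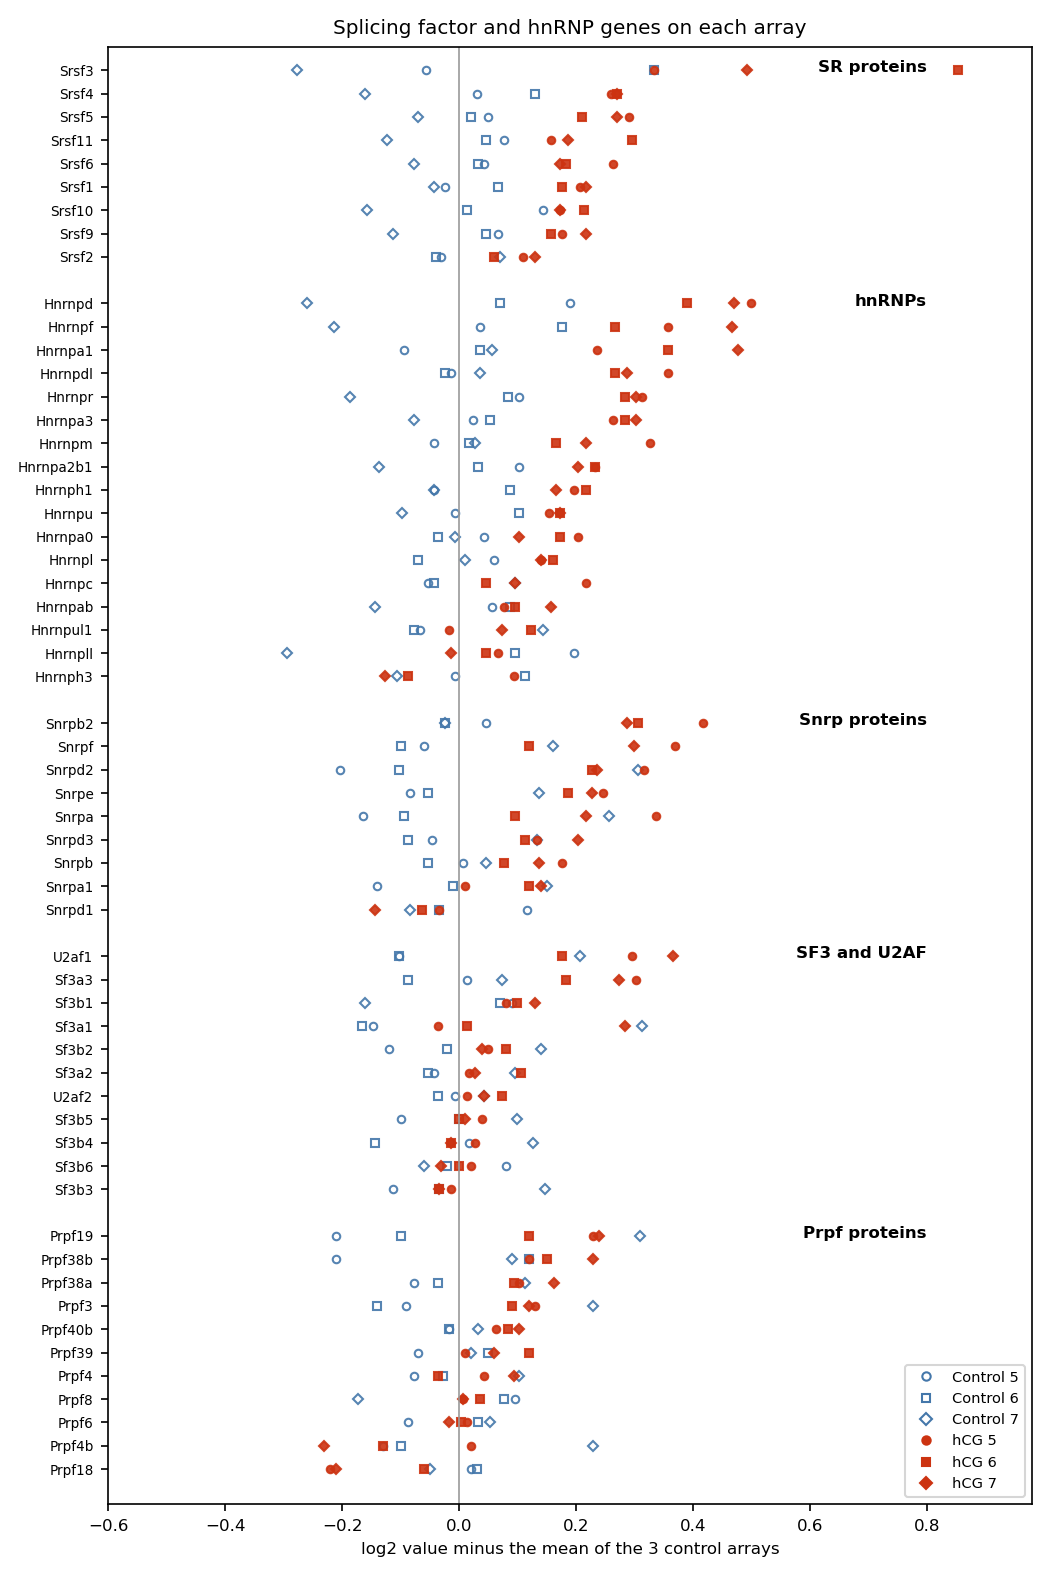
Log2 value of each of the 57 tested genes on each array, minus that gene's control mean (open blue symbols, control; filled red symbols, hCG; 1 symbol shape per array number), ordered by change within each family. In the top families most red symbols lie to the right of the blue ones, while in the SF3, U2AF and Prpf genes the symbols mix, and distances are mostly below 0.4 on the log2 scale.

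The families differed in their counts. Groups did not overlap, with hCG higher, in 8 of 9 SR protein genes, 12 of 17 hnRNP genes, 3 of 9 Snrp genes, 1 of 11 SF3 and U2AF genes and 2 of 11 Prpf genes, beside 19.3% of all genes. Median log2 changes were 0.21 for SR protein genes, 0.19 for hnRNP genes, 0.21 for Snrp genes, 0.05 for SF3 and U2AF genes and 0.06 for Prpf genes. Their order moved with single arrays. Without Control 7 the medians were 0.17, 0.17, 0.29, 0.07 and 0.09, in the same order of families. Without Control 5 they were 0.25, 0.18, 0.14, 0.04 and 0.06. The difference between families was not tested.

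**Figure D2:**
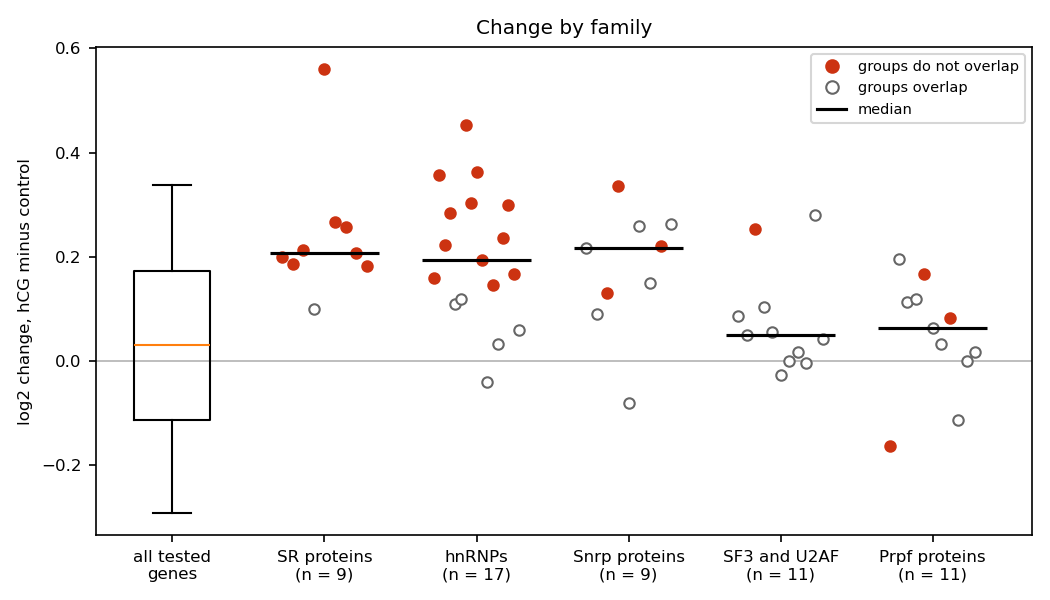
Log2 change (hCG minus control, difference of 3-array means) of each tested gene by family, with the family median as a black line; filled points are genes whose groups do not overlap. The box gives all 10424 tested genes, with the median in orange, quartiles as the box and whiskers at the 10th and 90th percentiles. SR protein, hnRNP and Snrp medians lie between 0.19 and 0.21, and the medians of the other families at 0.05 and 0.06.

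Promoter windows are shown for the gene of smallest p in each of the families with the larger medians (Srsf5, Hnrnpdl with both its annotated starts, and Snrpb2), and for Prpf18, in which all hCG values lay below all control values. They run from 250 bases before to 50 bases after the RefSeq start, on the plus strand of the rat assembly GRCr8. Capitals mark the motifs searched, on both strands: CCAAT (bound by NF-Y), CCGGAAG (an ETS site), GGGCGG (the GC box of Sp1), CACGTG (an E-box) and TATAAA (the TATA box).
Srsf5, chr6:106336506-106336805: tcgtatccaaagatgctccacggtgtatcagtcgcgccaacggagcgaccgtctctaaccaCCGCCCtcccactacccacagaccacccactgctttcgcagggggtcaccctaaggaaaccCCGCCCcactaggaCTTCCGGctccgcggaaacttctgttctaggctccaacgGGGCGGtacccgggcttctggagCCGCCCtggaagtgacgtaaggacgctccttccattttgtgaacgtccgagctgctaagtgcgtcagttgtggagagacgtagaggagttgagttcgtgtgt
Hnrnpdl, first start, chr14:9861466-9861765: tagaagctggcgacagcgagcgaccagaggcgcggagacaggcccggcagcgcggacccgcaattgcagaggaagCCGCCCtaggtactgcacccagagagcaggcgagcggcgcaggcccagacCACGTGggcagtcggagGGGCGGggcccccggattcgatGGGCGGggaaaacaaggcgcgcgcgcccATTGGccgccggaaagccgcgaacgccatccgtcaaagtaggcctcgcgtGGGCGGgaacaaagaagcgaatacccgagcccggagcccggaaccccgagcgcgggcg
Hnrnpdl, second start, chr14:9862404-9862703: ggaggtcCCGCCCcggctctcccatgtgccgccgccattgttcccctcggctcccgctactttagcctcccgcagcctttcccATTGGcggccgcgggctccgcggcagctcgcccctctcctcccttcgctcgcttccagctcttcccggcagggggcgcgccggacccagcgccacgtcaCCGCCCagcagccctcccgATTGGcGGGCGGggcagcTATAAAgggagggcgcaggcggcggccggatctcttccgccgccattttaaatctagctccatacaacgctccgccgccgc
Snrpb2, chr3:150852584-150852883: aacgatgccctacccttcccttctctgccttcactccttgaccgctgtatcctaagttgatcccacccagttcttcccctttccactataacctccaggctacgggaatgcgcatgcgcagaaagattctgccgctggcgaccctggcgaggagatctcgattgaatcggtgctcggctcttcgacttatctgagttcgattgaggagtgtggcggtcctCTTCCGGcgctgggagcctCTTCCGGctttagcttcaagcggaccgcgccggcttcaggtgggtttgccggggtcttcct
Prpf18, chr17:78539640-78539939: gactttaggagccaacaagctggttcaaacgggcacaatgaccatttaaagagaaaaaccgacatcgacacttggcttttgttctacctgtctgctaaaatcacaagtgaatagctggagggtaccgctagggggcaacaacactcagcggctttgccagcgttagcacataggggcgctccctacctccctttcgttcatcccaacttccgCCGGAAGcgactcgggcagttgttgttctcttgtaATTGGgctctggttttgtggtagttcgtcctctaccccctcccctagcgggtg

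The windows of Srsf5 and Hnrnpdl carry several GC boxes, and that of Snrpb2 carries a pair of ETS matches close to the start. Prpf18 has an ETS match as well. Of the 60 genes 56 had a window, 60 windows in all. The CCGGAAG motif was in 19 of these 60 (31.7%), beside 8.75% of all 33469 windows in the RefSeq table. GGGCGG was in 58.3% (33.1% of all), CCAAT in 56.7% (37.5% of all), CACGTG in 13.3% (6.42% of all) and TATAAA in 11.7% (14.2% of all). Shares of all windows were taken over the whole RefSeq table, not over the genes tested here. By family, CCAAT was in 16 of 19 hnRNP windows, 5 of 11 SR protein windows, 5 of 10 Snrp windows, 2 of 9 SF3 and U2AF windows and 6 of 11 Prpf windows. CCGGAAG was in 4 of 19, 4 of 11, 4 of 10, 4 of 9 and 3 of 11, in the same order. GGGCGG was in 15 of 19, 8 of 11, 3 of 10, 5 of 9 and 4 of 11. CACGTG and TATAAA, each in fewer windows, are not split by family here. These are matches of letters, with no measurement of binding.

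Among SR protein genes all 9 tested lay above the control mean. Srsf5 had control values of 8.85, 8.82 and 8.73 and hCG values of 9.09, 9.01 and 9.07. The groups were apart by 0.16, and the log2 change was 0.26 (SE 0.08, 1.19-fold; limma adjusted p = 0.116, n = 3 arrays per group). Srsf4, which has a long RS domain, had control values of 7.94, 8.04 and 7.75 and hCG values of 8.17, 8.18 and 8.18. Its hCG values were nearly equal and its control values spread more, with a change of 0.27 (SE 0.09, limma adjusted p = 0.156).

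Srsf6, known for its part in wound healing of the skin and in tau exon choice, had control values of 8.43, 8.42 and 8.31 and hCG values of 8.65, 8.57 and 8.56. All hCG values lay above all control values, and the change was 0.21 (SE 0.08, limma adjusted p = 0.171). Srsf3, the smallest SR protein and one that also acts in mRNA export, had control values of 3.17, 3.56 and 2.95 and hCG values of 3.56, 4.08 and 3.72. This was the largest change of any gene described here, 0.56 (SE 0.19, 1.48-fold, 95% interval 0.11 to 1.02; limma adjusted p = 0.146), but its probe set is dim, and the highest control and lowest hCG values were equal at 2 decimals. Without hCG 6 the change of Srsf3 was 0.41, and without Control 6 it was 0.73. Other probe sets for Srsf3 also match another locus and were not used.

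Srsf2 (SC35), which marks nuclear speckles, was the SR protein gene whose groups overlapped, with control values of 9.62, 9.61 and 9.72 and hCG values of 9.76, 9.71 and 9.78, a change of 0.10 (95% interval -0.08 to 0.28; limma adjusted p = 0.47). The other 4, Srsf1, Srsf9, Srsf10 and Srsf11, had changes from 0.18 to 0.21 with groups that did not overlap (limma adjusted p from 0.173 to 0.282). These are values of the brightest probe sets. A second probe set gave 0.11 for Srsf1 and -0.01 for Srsf11, both with overlap. The other tested probe sets of Srsf10 gave 0.24, 0.10 and -0.03, also with overlap. Srsf1 (SF2/ASF) is the best known member of the family and Srsf10 is a repressor when dephosphorylated.

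Of 17 hnRNP genes 16 lay above the control mean, and 9 had an unadjusted p under 0.05, beside 24.1% of all genes. Hnrnpdl, a relative of the AU-rich element binding protein encoded by Hnrnpd, had control values of 8.59, 8.58 and 8.64 and hCG values of 8.96, 8.87 and 8.89. The groups were apart by 0.23, several times the SD of either group (0.03 and 0.05), with a change of 0.30 (SE 0.07, 1.23-fold, 95% interval 0.13 to 0.48; limma adjusted p = 0.0815). With a variance trend in limma it was called (adjusted p = 0.0451). Hnrnpd (AUF1), which binds AU-rich elements and promotes decay of the messages that carry them, had control values of 7.21, 7.09 and 6.76 and hCG values of 7.52, 7.41 and 7.49. Control 7 was far below the other controls, and the change of 0.45 (SE 0.13, limma adjusted p = 0.106) was 0.32 without it. In the RefSeq table Hnrnpdl and Hnrnpd are neighbours on chromosome 14 with 0 genes between them, and no other pair of these genes was adjacent.

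Hnrnpa1, an abundant hnRNP that represses exons in competition with SR proteins, had control values of 8.26, 8.39 and 8.41 and hCG values of 8.59, 8.71 and 8.83. The hCG values were all above the controls and differed by more among themselves than in most hnRNP genes, with a change of 0.35 (SE 0.09, 1.28-fold; limma adjusted p = 0.0952). Hnrnpa3, a close relative, had control values of 10.21, 10.24 and 10.11 and hCG values of 10.45, 10.47 and 10.49, a change of 0.28 (SE 0.08, limma adjusted p = 0.0983). Here both groups were tight, with SDs of 0.07 and 0.02, but the change was 0.18 (adjusted p = 0.32) with the mean of all tested probe sets of Hnrnpa3.

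Changes of the other 13 hnRNP genes ran from -0.04 to 0.36, with limma adjusted p from 0.138 to 0.905. In 8 the groups did not overlap, with hCG higher, beside 19.3% of all genes. Some are named here after their values were seen. Hnrnpf, which binds G-runs, had a change of 0.36 (SE 0.12), and Hnrnpr one of 0.30 (SE 0.10). Hnrnpa2b1, which sorts RNAs in the cytoplasm and reads modified RNA, and Hnrnpm, a regulator of CD44 splicing, had changes of 0.22 and 0.23. The other tested probe sets of Hnrnpa2b1 gave 0.02, 0.10 and 0.14, all with overlap. Hnrnpu had a change of 0.17 without overlap on its brightest probe set, but -0.08 and -0.12 on its others. Hnrnpc, which counts transcript length and masks Alu exons in human cells, overlapped between groups (0.12, 95% interval -0.09 to 0.33), as did Hnrnpab (0.11), Hnrnpul1 (0.06), Hnrnpll, the regulator of Ptprc splicing in lymphocytes (0.03), and Hnrnph3 (-0.04).

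Of 9 Snrp genes 8 lay above the control mean, and in 3 the groups did not overlap with hCG higher, where 19.3% of all genes did so. Snrpb2 encodes the U2 particle protein B'' and had the smallest p of all the genes described here, with control values of 7.43, 7.36 and 7.36 and hCG values of 7.80, 7.69 and 7.67. The groups were apart by 0.24, with SDs of 0.04 and 0.07, and the change was 0.33 (SE 0.08, 1.26-fold, 95% interval 0.15 to 0.52; limma adjusted p = 0.0742). With 1 array left out in turn it lay between 0.30 and 0.36. Snrpe, an Sm ring protein, had control values of 9.57, 9.60 and 9.79 and hCG values of 9.90, 9.84 and 9.88, a change of 0.22 (SE 0.09, limma adjusted p = 0.192). Control 7 came within 0.05 of the lowest hCG value.

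The same array was high in other Sm genes. Snrpf, another Sm ring protein, had control values of 8.32, 8.28 and 8.54 and hCG values of 8.75, 8.50 and 8.68, so that Control 7 lay above hCG 6; the change was 0.26 (SE 0.11, limma adjusted p = 0.197). Snrpd2, the Sm protein that pairs with Snrpd1 in the ring, had control values of 8.23, 8.33 and 8.74 and hCG values of 8.75, 8.66 and 8.67. Its change was 0.26 (SE 0.14, limma adjusted p = 0.309) with all arrays. Without Control 7 it was 0.41 and was called (adjusted p = 0.0449), beside 3.36% of all genes called higher in that fit, and without Control 5 it was 0.16 (adjusted p = 0.574). The other 5, Snrpa, Snrpa1, Snrpb, Snrpd1 and Snrpd3, had changes from -0.08 to 0.21 (limma adjusted p from 0.341 to 0.639).

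SF3 and U2AF genes had small changes: in 9 of 11 the log2 change lay between -0.03 and 0.10. The exceptions were U2af1 and Sf3a3. U2af1, the small U2AF subunit that reads the AG at the end of the intron, had control values of 8.49, 8.49 and 8.80 and hCG values of 8.89, 8.77 and 8.96. Control 7 lay above hCG 6, and the change was 0.28 (SE 0.11, limma adjusted p = 0.191). Sf3a3 (SF3a60) had control values of 6.68, 6.58 and 6.74 and hCG values of 6.97, 6.85 and 6.94, with no overlap and a change of 0.25 (SE 0.08, limma adjusted p = 0.138). Their partners had smaller values: U2af2 had a change of 0.04 (95% interval -0.13 to 0.22), Sf3a1 one of 0.09 (-0.28 to 0.46) and Sf3a2 one of 0.05 (-0.14 to 0.25).

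Sf3b1, the largest SF3B subunit and the one most often mutated in blood cancers, had control values of 9.77, 9.75 and 9.52 and hCG values of 9.76, 9.78 and 9.81. Control 5 and 6 lay within 0.1 of every hCG value, and the change of 0.10 (95% interval -0.12 to 0.32; limma adjusted p = 0.543) was 0.02 without Control 7. Sf3a2 had control values of 6.79, 6.78 and 6.93 and hCG values of 6.85, 6.94 and 6.86, with Control 7 inside the hCG range. The remaining SF3 genes, named after their values were seen, were Sf3b6, which lies at the branch point adenosine (0.00, 95% interval -0.18 to 0.18), Sf3b4 (0.00, -0.22 to 0.22), Sf3b5 (0.02, -0.18 to 0.22), Sf3b2 (0.06, -0.16 to 0.28) and Sf3b3 (-0.03, -0.24 to 0.19). For these the intervals leave room for changes of about the size seen in the hnRNP genes. A second probe set of Sf3b2 gave -0.23, with every hCG value below every control value. The same held for a dimmer probe set of U2af2 (-0.23).

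Prpf genes had small changes too, with 8 of 11 above 0 and 0 at an unadjusted p under 0.05. By brightest probe set, Prpf18, which acts in the second step of splicing, was the one gene with every hCG value below every control value. It had control values of 7.13, 7.14 and 7.06 and hCG values of 6.89, 7.05 and 6.90. The gap was 0.02 and the change -0.17 (SE 0.08, 95% interval -0.36 to 0.03; limma adjusted p = 0.273). Prpf38b, related to the spliceosome activator Prpf38a, had control values of 6.29, 6.62 and 6.59 and hCG values of 6.62, 6.65 and 6.73, a change of 0.17 (limma adjusted p = 0.394), with groups that touched at 2 decimals. Without Control 5, its lowest array, the change of Prpf38b was 0.06. Prpf38a itself had control values of 7.19, 7.23 and 7.38 and hCG values of 7.37, 7.36 and 7.43, a change of 0.12 (limma adjusted p = 0.438). In Prpf38a the groups overlapped through Control 7.

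Prpf19, the ubiquitin ligase of the complex named after it, had control values of 6.88, 6.99 and 7.40 and hCG values of 7.32, 7.21 and 7.33. Control 7 was the highest of all arrays, and the change of 0.19 (SE 0.14, limma adjusted p = 0.443) was 0.35 without Control 7 and 0.09 without Control 5. Prpf8, the scaffold at the catalytic centre, had control values of 8.07, 8.05 and 7.80 and hCG values of 7.98, 8.01 and 7.98, a change of 0.02 (95% interval -0.21 to 0.24; limma adjusted p = 0.934). Without Control 7 the change of Prpf8 was -0.07, and it was -0.02 after cyclic loess. The other 6 Prpf genes had changes from -0.11 to 0.11 (limma adjusted p from 0.508 to 0.992).

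Control 7 parted the families. It was the lowest control array in 8 of 9 SR protein genes and 10 of 17 hnRNP genes, and the highest in 7 of 9 Snrp genes, 9 of 11 SF3 and U2AF genes and 7 of 11 Prpf genes. Over all tested genes it was the lowest control in 31.5% and the highest in 50%. Mean levels of the SR protein genes, relative to the control mean, were 0.03, 0.07 and -0.11 on Control 5, 6 and 7 and 0.22, 0.27 and 0.24 on hCG 5, 6 and 7. Those of the hnRNP genes were 0.03, 0.04 and -0.07 against 0.22, 0.19 and 0.20, so that in both families every control array lay below every hCG array. Snrp genes had -0.06, -0.06 and 0.12 against 0.22, 0.13 and 0.18, with Control 7 next to hCG 6.

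In the remaining families Control 7 reached the hCG range. SF3 and U2AF genes had -0.04, -0.05 and 0.09 (control) against 0.07, 0.06 and 0.10, and Prpf genes -0.08, -0.01 and 0.09 against 0.05, 0.04 and 0.05. The control SD exceeded the hCG SD in 49 of 57 genes (86%), beside 66.1% of all tested genes. Without Control 7 groups did not overlap, with hCG higher, in 43 of the 57 genes (33.3% of all genes), where fewer control arrays make overlap less likely.

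**Figure D3:**
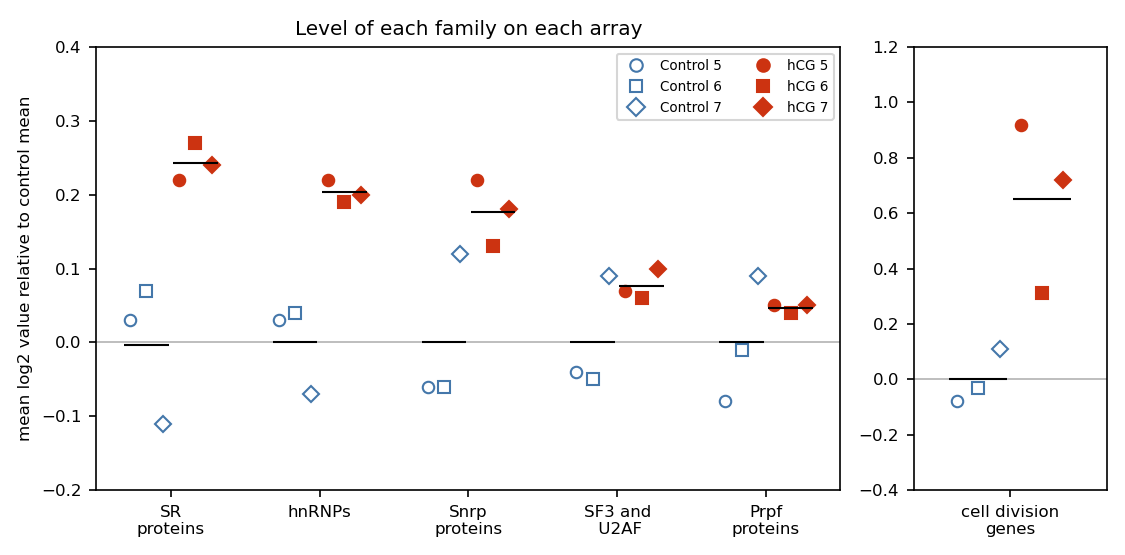
Mean log2 value of each family on each array, each gene taken relative to its control mean; black bars are group means over 3 arrays. The right panel, on its own wider axis, gives the list of 28 cell division genes. Control 7 (open diamond) is the lowest point for SR protein and hnRNP genes and the highest control for the other families. The lowest hCG array for cell division genes is hCG 6. Its SR protein mean of 0.27, the highest, includes the dim Srsf3 (4.08 on hCG 6, control mean 3.22). Of the 9 SR protein genes, hCG 6 is the lowest hCG array in 4 and the highest in 4.

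Different probe sets of one gene did not always have the same sign. Of the 98 probe sets 90 passed the filter, 73 above and 17 below 0, and 0 were called (smallest limma adjusted p over all probe sets 0.0623, for a second Hnrnpa1 probe set; 298 of all probe sets were called). In 18 genes several were tested: in 8 all lay above 0, and in 10 they had opposite signs. The 3 probe sets of Hnrnpa1 gave 0.35, 0.37 and 0.35, and the 3 of Srsf6 gave 0.21, 0.29 and 0.25. The 5 of Hnrnpa3 ranged from 0.07 to 0.28, with the brightest at the top of that range. Those of Sf3b1 gave 0.10, -0.09 and -0.32 from the brightest to the dimmest, those of U2af2 0.04, -0.23 and 0.14, and those of Prpf38b 0.17, -0.13 and -0.15. With the mean of all tested probe sets in place of the brightest, the change of Sf3b1 was -0.10 and that of Prpf38b -0.04. The position of the probe sets on the transcripts was not used here.

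**Figure D4:**
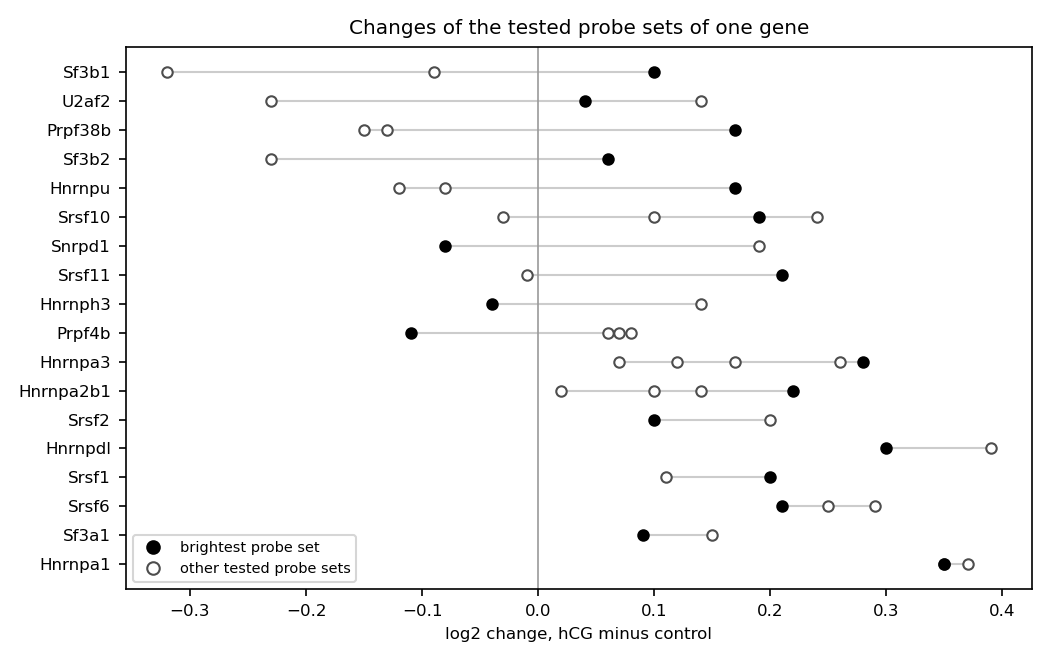
Log2 change (hCG minus control) of each tested probe set for the 18 genes with several, the brightest filled, ordered with genes of opposite signs first and by range. The spread within a gene reaches 0.42 for Sf3b1 and is 0.02 for Hnrnpa1.

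Many of these genes have processed copies that share their sequence. The RefSeq table lists 117 pseudogenes named after 25 of the 60 genes, with 51 for Hnrnpa1 alone, and the signal of such a probe set may include copies. The 23 tested genes with a named pseudogene had a median change of 0.21, and the 34 without one had 0.10. Most of the 23 were SR protein, hnRNP or Snrp genes, the families with medians from 0.19 to 0.21. The part of pseudogene copies in this difference was not tested. A further 8 probe sets name a gene of this kind together with another gene, among them those of Hnrnpk, Snrpc and Snrpg, and were left out.

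Other splicing genes, from 6 lists with 135 tested genes of 155, gave 1 call, higher, where 1.01% of all genes were called higher. Pcbp3, a poly(C)-binding protein related to hnRNP K, rose: it had control values of 4.97, 4.78 and 5.13 and hCG values of 5.94, 5.78 and 5.90, a change of 0.92 (SE 0.11, limma adjusted p = 0.0325). Its call, like all others, was lost when Control 5, Control 6, hCG 5 or hCG 7 was left out. It was the 1 called of 40 regulators of alternative splicing with other names, whose median was 0.08; next came the Sam68 relative Khdrbs3 (0.48, SE 0.09, adjusted p = 0.0559).

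Lsm genes, several of which encode the ring of the U6 particle, stood at a median of 0.26, with 0 of 12 called and 6 at an unadjusted p under 0.05 (24.1% of all genes), led by Lsm3 (0.38, limma adjusted p = 0.0859) and Lsm14a, a P-body protein outside that ring (0.30, adjusted p = 0.103). The 9 genes of the exon junction complex and nonsense-mediated decay had a median of 0.15 with 0 called and 2 at an unadjusted p under 0.05, and the core subunits Magoh (0.40, adjusted p = 0.0654) and Eif4a3 (0.23, adjusted p = 0.143) had the smallest p. The 15 genes of snRNP assembly, the route by which Sm proteins are loaded on RNA, had a median of 0.12 with 0 called and 3 at an unadjusted p under 0.05, led by Gemin6 (0.34, adjusted p = 0.126) and Gemin2 (0.29, adjusted p = 0.154). That median was 0.07 without Control 5 and 0.18 without Control 7.

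The 34 genes of other particle proteins, spliceosome helicases and core factors had a median of 0.04 with 0 called. Of them 4 had an unadjusted p under 0.05, beside 24.1% of all genes. Snrnp40 of the U5 particle had a change of 0.35 (limma adjusted p = 0.0818), and the helicase Ddx41 one of -0.44 (adjusted p = 0.0934). The 25 genes of SR protein kinases and SR-related proteins had a median of 0.06 with 0 called. Of these 5 had an unadjusted p under 0.05, beside the same 24.1%. Srek1 had a change of 0.34 (adjusted p = 0.0781) and Rsrp1 one of -0.29 (adjusted p = 0.154). The larger medians among these lists were thus those of Lsm and exon junction genes, and those of the kinases and helicases lay close to the median of all genes.

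Genes of other kinds differed between the same arrays. Of 28 cell division genes all lay above 0, with a median of 0.68 and 4 called higher (1.01% of all genes), and mean levels from -0.08 to 0.11 on control arrays and from 0.31 to 0.92 on hCG arrays. Of 11 endothelial markers 5 were called higher (median 1.23; levels -0.32 to 0.46 and 1.01 to 1.12), of 14 fibroblast markers 1 was called higher (median 0.32; -0.14 to 0.14 and 0.12 to 0.31), and of 3 adipocyte markers 1 was called higher (median 1.01; -0.17 to 0.23 and 0.83 to 1.09). Of 12 pan-luminal markers 1 was called lower (median -0.56; -0.77 to 0.64 and -0.70 to -0.38), and 0 of 13 basal markers were called (3 at an unadjusted p under 0.05; median 0.58; -0.58 to 0.47 and 0.40 to 0.62). Of 6 macrophage markers 0 were called, but 5 had an unadjusted p under 0.05, beside 24.1% of all genes. The markers went both ways, with a median of 0.20 and levels of -0.18 to 0.35 on control and -0.33 to 0.11 on hCG arrays. In 3 of them every hCG value lay below every control value (12.3% of all genes), among them Cd68 (-1.33, limma adjusted p = 0.0879) and Ptprc (-1.09, adjusted p = 0.102), and in 1 the reverse held. The epithelial markers Epcam (6.36 to 7.97 over all arrays) and Krt14 (5.19 to 7.45) were well above the filter level, and so was the endothelial marker Pecam1 (3.13 to 5.49), while the adipocyte marker Adipoq was below it (1.85 to 2.17). Only 3 of the 8 listed adipocyte markers were tested, and the called one was Fabp4. Poly-A RNAs added before labelling were lower on hCG arrays, with a mean log2 level of 5.56 ± 0.14 (SD, n = 3) against 4.51 ± 0.34 (p = 0.1 by a two-sided exact permutation test, the smallest value that 3 arrays a group allow). The difference between 3' and 5' probe sets, a sign of RNA length, was 1.76 ± 0.37 in control and 1.63 ± 0.11 in hCG arrays for Actb (exact permutation p = 0.8) and 0.33 ± 0.30 against 0.11 ± 0.06 for Gapdh (exact permutation p = 0.3). Control 7 stood apart in both, at 2.18 for Actb (1.46 to 1.75 on the other arrays) and 0.67 for Gapdh (0.05 to 0.22). The part of these differences in the values of the splicing genes was not tested, and fewer cells of a kind cannot be told apart from less RNA per cell.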

How the data were processed

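RNA of 3 control and 3 hCG mammosphere samples was amplified in 2 cycles and measured on Affymetrix 3' arrays, per the labels' protocols. The authors' deposited table holds log2 expression of 31099 probe sets, taken as log2 and normalized between arrays from its values (0.74 to 13.1, array medians 3.44 to 3.48); RMA, MAS5 and limma are named in the submitters' processing notes without roles. Such a normalization hides a change shared by most genes.

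The 57 control probe sets and the dimmest 40% of the others were left out, leaving 18625 probe sets. Of 31042 probe sets 20826 named 1 gene, 436 several and 9780 none. By Entrez number, 20758 were matched to a RefSeq table of GRCr8, whose updated symbols were then used. The two-sided group comparison used limma 3.58.1 (lmFit, eBayes; R 4.3.3; 4 residual degrees of freedom), with Benjamini-Hochberg adjustment over the 10424 genes, called at adjusted p under 0.05; adjusted over all probe sets, 177 genes in place of 190 were called. Since arrays are not tied to animals, p-values may reflect technical spread alone.

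Members and lists were chosen with earlier results of these data known. Named genes were, per family, the 4 of smallest p and the brightest, and of other lists the called genes and the 2 of smallest p. The fitting script was tested on simulated data with the means and spreads of the 18625 probe sets, 200 of them changed at random. At a log2 change of 0.25 it called 1 of the 200, and at a change of 1 it called 187. Alternatives were other filters, normalizations and variance settings, array weights, a replicate block, mean probe sets, updated symbols and each array left out; an adjusted p under 0.10, the adjustment over probe sets and counts of non-overlap were added after seeing the data.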

Additional observations from a re-analysis of the deposited data

How the results depend on the processing

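The median change of all the splicing genes lay between 0.14 and 0.16 with 1 array left out in turn and was 0.10 after cyclic loess and 0.12 with the mean of all tested probe sets. That of the hnRNP genes was 0.14 after cyclic loess, and medians of the 5 families were above 0 under each of the 16 alternatives run, or 0.00 for SF3 and U2AF genes with mean probe sets. Of 22 named genes 18 lay above 0 under each alternative run for them; Srsf3 has no value under the stricter filter (dimmest 60% dropped). Prpf8 changed sign with quantile normalization (0.00), cyclic loess (-0.02), array weights (-0.05) and without Control 7 (-0.07), and Sf3b1 (-0.10) and Prpf38b (-0.04) with mean probe sets. The updated symbols gave the same 60 genes.

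Array weights called 17 of the 57 genes higher, 1654 of all genes higher (15.9%) and 1009 lower (9.68%). They called 7 Lsm genes, 4 exon junction genes and 5 snRNP assembly genes higher, 2 helicase and particle genes higher and 1 lower, 4 SR-related genes higher and 2 lower, and 11 alternative splicing regulators higher and 2 lower; the Lsm median was 0.32. A variance trend called 1 of the splicing genes (Hnrnpdl), 172 genes higher (1.65%) and 134 lower, with 2 alternative splicing regulators and 1 exon junction gene. At an adjusted p under 0.10, 4 splicing genes were higher (Hnrnpa1, Hnrnpa3, Hnrnpdl and Snrpb2), with 499 of all genes higher (4.79%) and 345 lower. The replicate block called 68 genes higher and 50 lower, and 0 of the splicing genes; deviations of the same-numbered pairs 5, 6 and 7 correlated at -0.09, 0.13 and 0.00, so the numbers were not taken as a pairing. With mean probe sets 2 alternative splicing regulators were higher and 1 lower, and the SR-related median was -0.03. After cyclic loess the median was 0.01 for helicase and particle genes and 0.03 for SR-related genes.

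With 1 array left out, calls over all genes ran from 0 to 350 higher and 0 to 236 lower, both highest without Control 7, and calls of splicing genes from 0 to 1 (Snrpd2, without Control 7). Calls among alternative splicing regulators ran from 0 to 2 higher and 0 to 1 lower, Lsm genes from 0 to 1 higher and SR-related genes from 0 to 1 lower. Medians ran from 0.06 to 0.15 for alternative splicing regulators, 0.07 to 0.18 for snRNP assembly genes, 0.01 to 0.06 for helicase and particle genes and 0.03 to 0.07 for SR-related genes. Under the other alternatives, non-overlap with hCG higher held in 22 splicing genes after cyclic loess (16.3% of all genes), 22 with mean probe sets (18.1%) and up to 29 with arrays centred on their medians (20.6%). The cause of these shifts was not tested. Standard errors from 0.07 to 0.19 with 3 arrays per group limit what can be called at changes near 0.2.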
